A study of Sus scrofa with 6 samples.

Results

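Spleen and lymph node were compared within the RAG2 knockout, using 2 of the 6 RNA sequencing libraries of the series: 1 of knockout spleen and 1 of knockout lymph node. Both came from pigs with a biallelic RAG2 knockout, taken at 3 months of age. By the series title the RAG2 lesion is a single amino acid deletion and the animals have severe combined immunodeficiency. The other libraries were the knockout thymus and the spleen, lymph node and thymus of wild-type littermates, and the wild-type spleen and lymph node are set beside the knockout values below. The labels give 1 library per organ and genotype, and they do not say whether the knockout libraries came from the same pig, how many pigs entered a library, or which lymph node was taken.

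RAG2 works with RAG1 as the recombinase that assembles antigen receptor genes, and without it precursors cannot become mature T or B cells. The spleen filters blood: macrophages of its red pulp take up old red cells and recycle their iron, inside a capsule and trabeculae rich in smooth muscle. A lymph node filters lymph, which enters through lymphatic vessels and passes macrophage-lined sinuses, and the organ usually lies embedded in fat. In a wild-type animal both organs are crowded with lymphocytes.

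The tables hold 4122 genes, a subset of the pig gene set. They received 2021583 fragments in the knockout lymph node and 2514982 in the knockout spleen. Levels are given as CPM, fragments per 1000000 fragments on the listed genes, because the tissue tables had been normalised separately and each library was therefore scaled to its own total. A gene was taken as measured with 10 or more fragments in either library. It was called higher or lower in spleen where the log2 ratio of spleen over lymph node, with 1 CPM added to each, reached 1 in size. Folds are ratios of the levels with 95% Clopper-Pearson intervals in parentheses, which cover counting error only. A count of 0 allows a level of up to 1.48 CPM in lymph node and 1.19 in spleen, the worth of 3 fragments. With 1 library a side there is no replicate check and no p-value, and the spread between animals is unknown.

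Of 2723 measured genes, 327 were called higher in the knockout spleen, which is 12%, and 485 were called lower, which is 17.8%. The interval left out equal levels for 320 of the former and 482 of the latter. The median log2 ratio of all measured genes was -0.079. At a log2 ratio of 2 or more in size, 115 genes were higher and 248 lower. The differences toward the lymph node were thus the more numerous at both sizes. The wild-type pair, measured in the same way, had 309 genes higher (11.6%) and 327 lower (12.2%) of 2672.

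**Figure D1:**
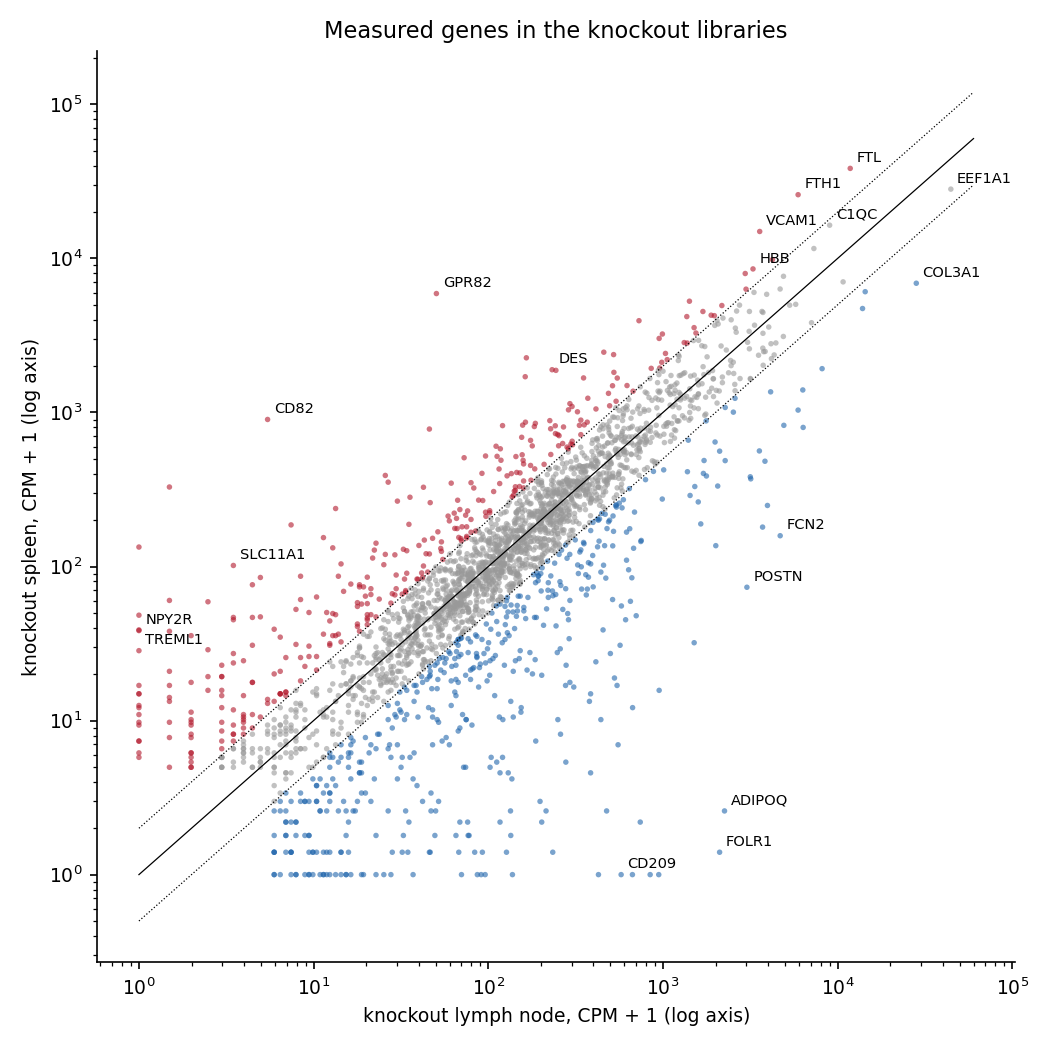
Level of each measured gene in the knockout lymph node (horizontal) and knockout spleen (vertical), in CPM plus 1 on log axes, 1 library each. Red points are the 327 genes called higher in spleen, blue points the 485 called lower, grey points the rest. The solid line marks equal levels and the dotted lines a 2-fold difference. FOLR1, ADIPOQ and CD209 lie far below the line, and GPR82 and CD82 far above it.

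Markers of both organs were looked at first. The haemoglobin gene HBB, a marker of red cells, stood at 3277 CPM in lymph node and 8548 in spleen, 2.61-fold higher (2.54 to 2.68). PROX1, the transcription factor of lymphatic endothelium, stood at 247 and 26.6. WT1, which mice need to form a spleen, had 24 fragments in lymph node and 330 in spleen. The other called gene of the 3 measured in the spleen development list, the positional homeobox gene HOXA5 (chromosome 18, 45429691 to 45432723), went the other way with 407 and 3 fragments, and the third, NR2F2, had a log2 ratio of 0.51. The spleen regulators TLX1 and NKX2-5 are not analysed here. B-cell markers were near 0 in both organs, with 6 and 2 fragments of MS4A1 and 0 of POU2AF1 in either. T-cell markers differed in level: the T-cell receptor chain CD3E had 3 fragments in lymph node and 8 in spleen, CD3D had 31 and 191, and CD2, which natural killer cells share, had 237 and 234. In bulk tissue, fewer cells of a type and less RNA per cell cannot be told apart, which holds for every difference below.

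Most fat-cell genes were lower in spleen. The adipocyte list had 28 measured members, of which 21 were lower in the knockout spleen and 1 was higher, with a median log2 ratio of -3.51 against -0.079 for all measured genes. The median was -3.34 where a gene at 0 was given the floor of 3 fragments in that library. ADIPOQ, the fat-cell hormone adiponectin (chromosome 13, 124633906 to 124646237 in Sscrofa11.1), had 4550 fragments in lymph node and 4 in spleen. Its level was 2251 against 1.59 CPM, 1415-fold higher in lymph node (552 to 5196). The lipid droplet coat protein PLIN1 (chromosome 7, 55237517 to 55250797) had 1706 fragments in lymph node and 0 in spleen, at least 707-fold higher in lymph node. CIDEA, which helps lipid droplets fuse, had 862 and 0 fragments and was at least 357-fold higher there. These genes were abundant in lymph node and nearly absent from spleen.

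The enzymes of fat storage and release followed the same order. Hormone-sensitive lipase LIPE stood at 1508 CPM in lymph node and 31.0 in spleen, 48.6-fold higher in lymph node (38.8 to 61.7). Lipoprotein lipase LPL was 96.4-fold higher there (26.2 to 803) on 155 and 2 fragments, and glycerol-3-phosphate dehydrogenase GPD1 29.2-fold (17.8 to 51.7). The retinol carrier RBP4 had 192 fragments in lymph node and 0 in spleen. PCK1, the gluconeogenic enzyme that fat cells use to make glycerol, was 17.5-fold higher in lymph node (12.8 to 24.5). FABP5, a fatty acid binding protein that macrophages also express, was the member higher in spleen, at 1507 and 3554 CPM. The summed level of the list was 17744 CPM in the knockout lymph node and 6775 in the knockout spleen. In the wild type it was 3416 in lymph node and 3455 in spleen, below both knockout organs. The fatty acid receptor CD36, which endothelial genes include too, gave 6348 CPM of the knockout lymph node sum. FABP5 gave 3554 of the knockout spleen sum, so the sums say little about the other members. ADIPOQ itself had 17 and 5 fragments in wild-type lymph node and spleen. The part of fat around or within the node in the other differences toward the lymph node was not tested.

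**Figure D2:**
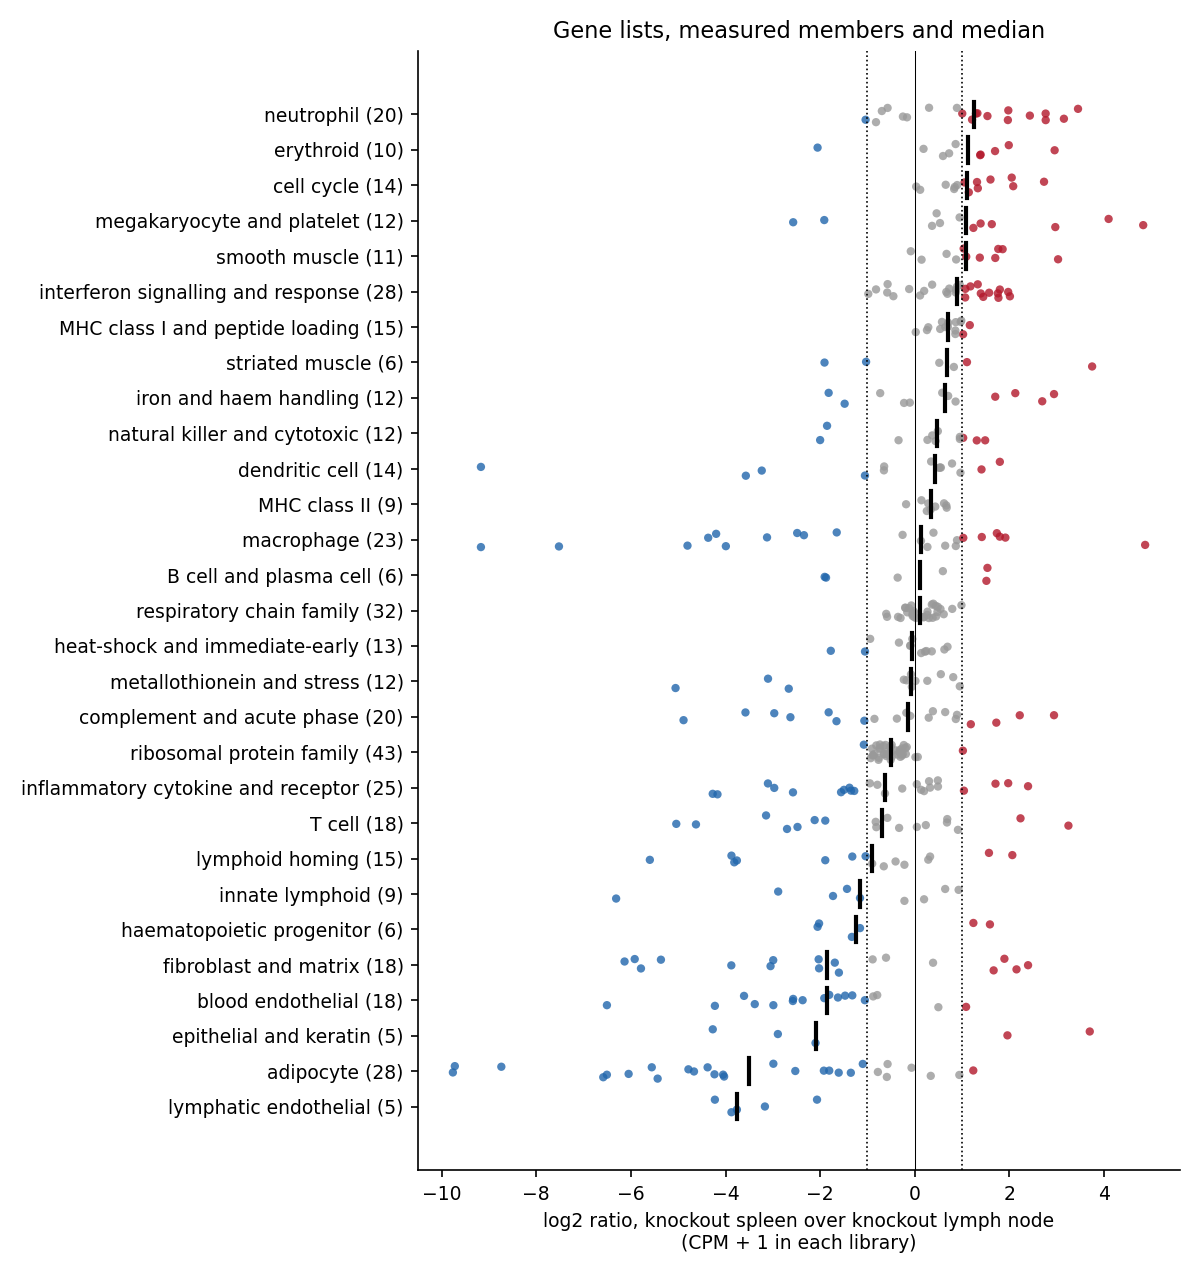
Log2 ratio of knockout spleen over knockout lymph node for the measured members of gene lists with 5 or more (number in parentheses). Of the families taken by symbol, only ribosomal proteins and the respiratory chain are drawn. Each point is a gene, red where called higher, blue where called lower and grey otherwise, the black bars are medians and the dotted lines mark 1 and -1. Adipocyte and lymphatic endothelial genes lie farthest toward lymph node, and neutrophil, erythroid and cell cycle genes toward spleen.

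Macrophage genes were called in both directions. Of 23 measured members 10 were lower in spleen and 6 higher, with a median of 0.13, which was -0.10 with no minimum. Most of the genes on the lymph node side encode surface receptors that bind sugars, complement or modified lipids. CD209, a lectin of macrophages and dendritic cells (chromosome 2, 71394414 to 71397711), had 1163 fragments in lymph node and 0 in spleen, at least 482-fold higher in lymph node. CLEC4G, a lectin known from sinus endothelium of human liver and lymph node and encoded nearby (chromosome 2, 71433406 to 71436570), had 960 and 4 fragments, 299-fold (116 to 1098). The complement receptor VSIG4 was 29.4-fold higher in lymph node (21.8 to 40.6), the mannose receptor MRC1 20.7-fold (18.9 to 22.9) and the sialic acid receptor SIGLEC-1 19.0-fold (14.8 to 24.8). The scavenger receptor MARCO stood at 3965 and 248 CPM and MSR1 at 469.9 and 83.1. All of these were detected in both knockout organs except CD209, which was at 0 in spleen.

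The macrophage genes on the spleen side include genes of phagosomes, lipid sensing and secretion. SLC11A1, a transporter that pumps metal ions out of phagosomes (chromosome 15, 120434100 to 120446396), had 5 fragments in lymph node and 253 in spleen, 40.7-fold higher in spleen (17.2 to 126). NR1H3, the oxysterol receptor LXR alpha, which mice need for marginal zone macrophages of the spleen, stood at 523 and 1821 CPM, 3.48-fold (3.26 to 3.73). CD5L, a protein that macrophages secrete, stood at 1693 and 4523, and lysozyme LYZ at 174 and 658. The complement C1q chains were abundant in both organs and fell short of a call, with C1QA at a log2 ratio of 0.64, C1QB at 0.89 and C1QC at 0.87. The list's summed level was 31586 CPM in lymph node and 37695 in spleen. Of it C1QC gave 9002 and 16431 and C1QA 4899 and 7655, so the sum says little about the other members. CD163, another macrophage receptor, is listed at 0 in every library, as is the haem-degrading enzyme HMOX1, and neither could be compared.

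Iron genes were higher in spleen in 4 of 12 cases and lower in 2 (median 0.64), against 12% and 17.8% of all measured genes. The share lower was thus near that of all genes. The ferritin chains, which store iron, led by level. FTH1 stood at 5940.4 CPM in lymph node and 25925 in spleen, 4.36-fold (4.28 to 4.45), and FTL at 11809 and 38419.8, 3.25-fold (3.21 to 3.30). FTL held the most fragments of any gene in the knockout spleen, 96625, and EEF1A1 the most in the lymph node, 89951. CP, the copper-bearing ferroxidase ceruloplasmin, was 7.72-fold higher in spleen (7.04 to 8.49), and the iron carrier TF had 4 and 46 fragments. Haptoglobin HP, which binds free haemoglobin, went the other way at 64.3 and 17.5 CPM, as did the metalloreductase STEAP4 at 30.7 and 10.3.

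Erythroid and platelet genes were higher in spleen in 5 of 10 and 6 of 12 cases. Their medians were 1.12 and 1.09, and NFE2 stands in both lists. The red-cell regulators KLF1 and GATA1 had 3 and 7 fragments in lymph node and 46 and 42 in spleen. The erythropoietin receptor EPOR was 3.36-fold higher in spleen (2.35 to 4.93). Among platelet genes, the receptor TREML1 (chromosome 7, 36455628 to 36460711) had 0 fragments in lymph node and 69 in spleen, at least 18.5-fold higher in spleen. The platelet tubulin TUBB1 was 21.2-fold higher (10.6 to 49.7), the lipoxygenase ALOX12 10.6-fold (4.32 to 33.8) and the integrin chain ITGA2B 3.20-fold (2.26 to 4.62). The members lower in spleen were GATA2, a progenitor and endothelial factor, and VWF and SELP, which endothelium also makes. In the wild type HBB stood at 180.5 and 18727 CPM, so its gap between organs was wider there than in the knockout, whose lymph node held 3277. The part of blood left in the tissues was not tested.

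The smooth muscle list had 7 of 11 members higher in spleen and 0 lower, with a median of 1.09. Desmin, DES, the muscle intermediate filament, stood at 231 CPM in lymph node and 1894 in spleen, 8.20-fold (7.45 to 9.03). Tropomyosin TPM2 was 3.63-fold higher (3.33 to 3.97), the myosin light chain MYL9 3.41-fold (3.04 to 3.84), smooth muscle actin ACTA2 3.26-fold (3.10 to 3.42) and calponin CNN1 2.60-fold (2.31 to 2.94). Outside that list, the muscle PDZ protein PDLIM3 was 19.2-fold higher (12.9 to 29.9) and the alpha-actin ACTC1 had 5 and 115 fragments. Smoothelin SMTN, by contrast, had a log2 ratio of -0.084 and phospholamban PLN of 0.14. In wild-type animals 10 of the 11 members were higher in spleen.

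Some of the genes with the widest ratios toward spleen encode receptors or peptides. NPY2R, a receptor for the sympathetic transmitter neuropeptide Y (chromosome 8, 74039959 to 74048398), had 0 fragments in lymph node and 95 in spleen, at least 25.5-fold higher in spleen. The beta-3 adrenergic receptor ADRB3 (chromosome 15, 48468803 to 48478370) had 3 and 146 fragments, 39.1-fold (13.1 to 192), and the peptide endothelin-3, EDN3, 1 and 149 fragments. Each of these was nearly absent from lymph node. Other vessel signalling genes lay toward lymph node, with the endothelin receptor EDNRB at a log2 ratio of -2.37 and endothelin-1, EDN1, at -1.05. NR5A1, a nuclear receptor that mice need for the vessels of the spleen, had 1 and 40 fragments, and the simple-epithelial keratin KRT8 had 5 and 111. The water channel AQP3 stood at 292 and 1140.0 CPM. KRT8 and AQP3 were the 2 higher of 5 measured members of the epithelial and keratin list, whose other 3 were lower (median -2.10). Among those lower in spleen, CLDN4 had 99 and 4 fragments and OCLN 158 and 44. In the wild type the log2 ratio was 6.24 for NPY2R, 4.38 for ADRB3, 6.40 for EDN3, 3.86 for NR5A1 and 5.19 for KRT8.

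**Figure D3:**
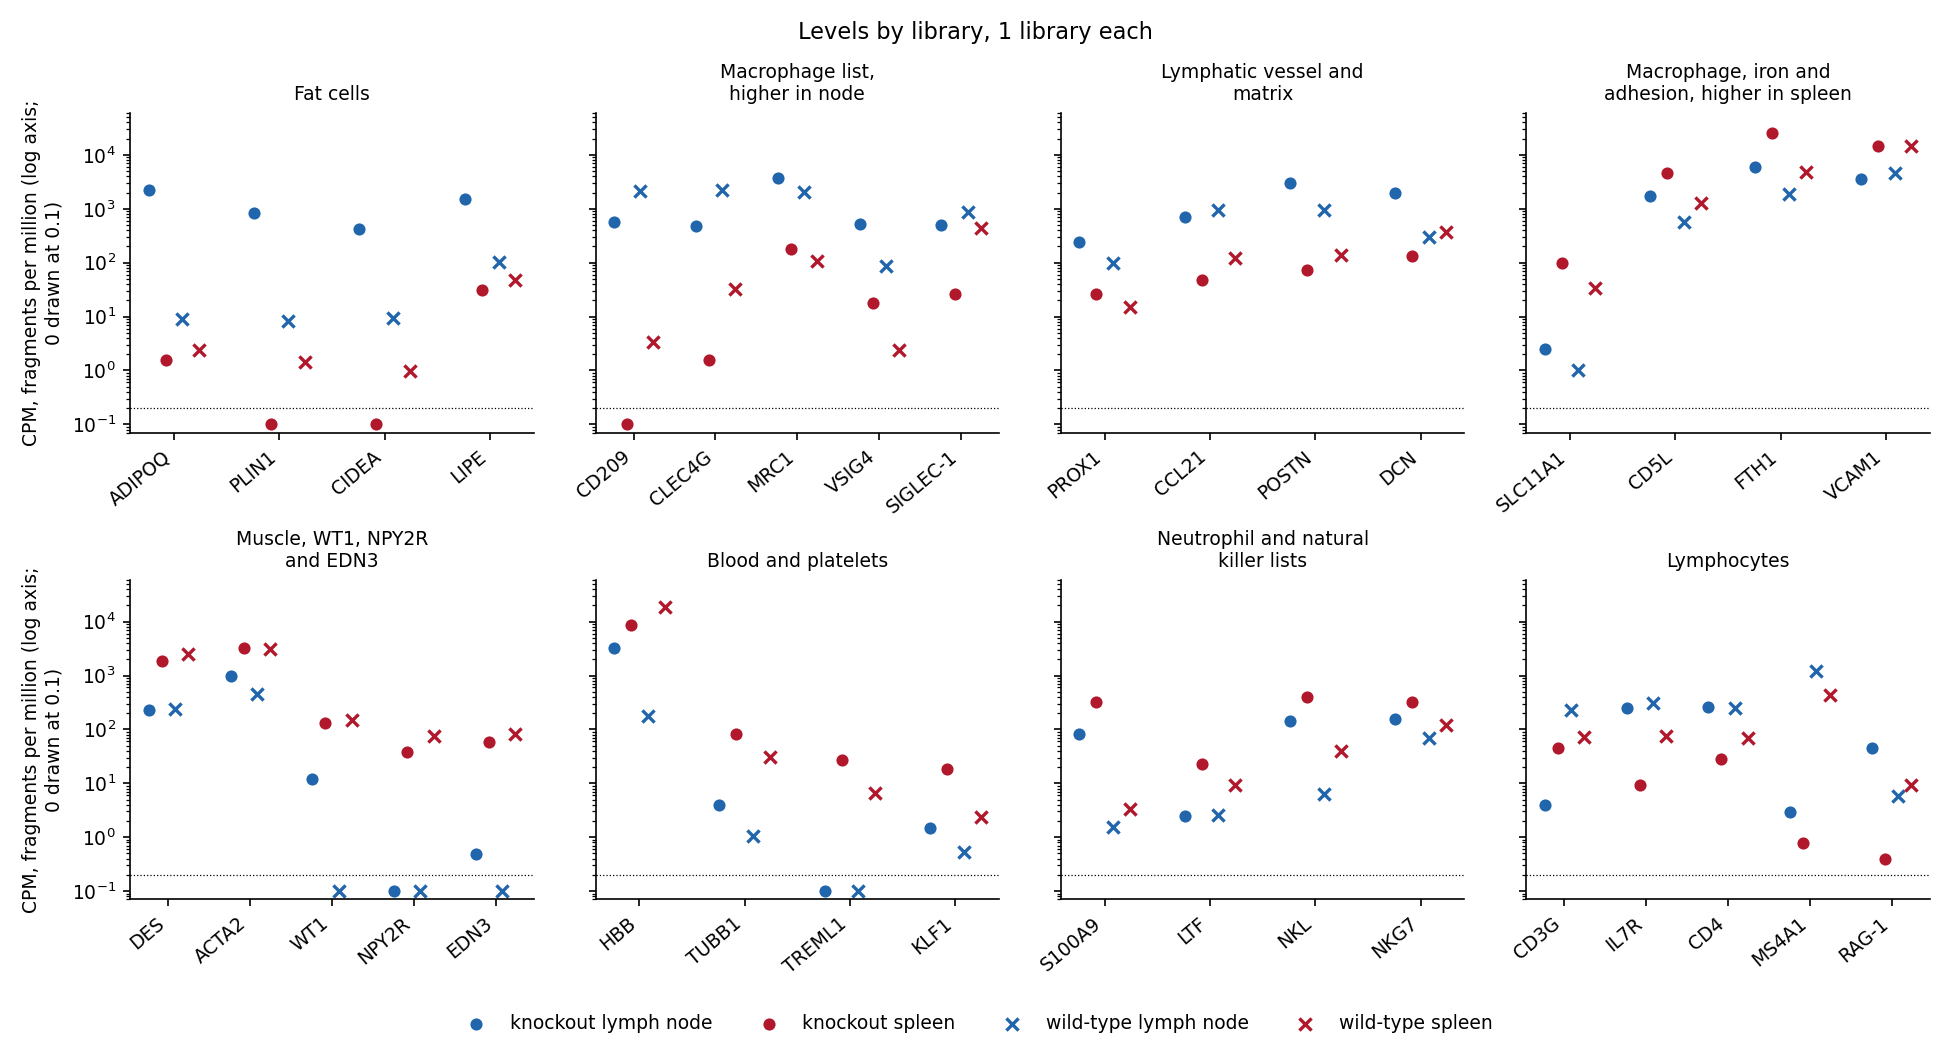
Level of selected genes in 4 libraries, in CPM on a log axis, with 1 point per library. Circles are knockout and crosses wild type, blue is lymph node and red is spleen, and a value of 0 is drawn at 0.1, below the dotted line. ADIPOQ, PLIN1 and CIDEA reach high levels in the knockout lymph node alone of the 4 libraries, while CD209, NPY2R and DES are separated by organ in both genotypes.

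Fibroblast and matrix genes were lower in spleen in 11 of 18 cases and higher in 4, with a median of -1.86. The collagen-binding proteoglycan lumican, LUM, was 60.1-fold higher in lymph node (41.4 to 90.8), periostin POSTN 41.8-fold (36.1 to 48.7) and the elastic fibre protein MFAP5 at least 58.1-fold on 140 and 0 fragments. Decorin DCN stood at 2006 and 136 CPM and the gelatinase MMP2 at 3837 and 482. The fibrillar collagen COL3A1 held 57039 fragments in lymph node and 17356 in spleen, 4.09-fold higher in lymph node (4.02 to 4.16), while COL1A2 had a log2 ratio of -0.89. Matrix genes thus shared the lymph node side with the fat-cell genes. The matrix genes on the spleen side were the growth factor TGFB1, the protease inhibitor TIMP1, the glycoprotein TNC and CCN2. TIMP1 stood at 154 and 689 CPM, 4.46-fold (3.96 to 5.05), and TNC at 1417 and 5275. The TGFB1 log2 ratio of 2.40 was 0.99 by FPKM scaled to its own total, just short of a call.

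Endothelial genes were lower in spleen. In the blood endothelial list 14 of 18 were lower and 1 higher (median -1.86), and all 5 measured members of the lymphatic list were lower (median -3.76). PROX1 was 9.28-fold higher in lymph node (7.18 to 12.2). CCL21, the chemokine by which lymphatic vessels and node stroma draw CCR7-bearing cells, stood at 702 and 46.9 CPM, and CCRL1, the scavenging receptor for the same chemokine now named ACKR4, was 13.8-fold higher (11.4 to 17.0). The vessel-remodelling factor ANGPT2, which stands in both lists, was 19.8-fold higher (14.4 to 28.2). Among blood endothelial genes the junction proteins CLDN5 and PECAM1 were 10.6-fold and 5.97-fold higher in lymph node and the protein C receptor PROCR 12.7-fold. Carbonic anhydrase CA4, which capillaries carry, had 255 fragments in lymph node and 1 in spleen. The hypoxia factor EPAS1 was the member higher in spleen, at 1544 and 3278 CPM. The fatty acid receptor CD36, counted among fat-cell and endothelial genes alike, stood at 6348 and 799.

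Homing genes differed in both directions. The adhesion molecule VCAM1, found on red pulp macrophages and stroma, stood at 3579.9 CPM in lymph node and 14962 in spleen, 4.18-fold (4.08 to 4.29). TNFSF13B, the B-cell survival factor BAFF, stood at 28.7 and 87.1. On the lymph node side, besides CCL21 and CCRL1, were the chemokine CCL20 with 135 and 1 fragments, the gut-homing receptor CCR9 with 83 and 5, and the receptor CCR7 with 250 and 82. The list had 7 of 15 members lower and 2 higher (median -0.90), against 17.8% and 12% of all measured genes. CCL19, which shares its receptor CCR7 with CCL21, stood at 508 and 383 CPM, a log2 ratio of -0.41, so the CCR7 ligands stood in different proportions in the knockout organs. In wild-type libraries CCL19 stood at 407 and 19.2.

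Neutrophil genes were higher in spleen in 12 of 20 cases and lower in 1, with a median of 1.25. The calgranulins S100A8, S100A9 and S100A12, antimicrobial proteins of the neutrophil cytoplasm, were 2.93-fold (2.44 to 3.54), 3.95-fold (3.34 to 4.70) and 2.48-fold (1.99 to 3.12) higher in spleen. S100A9 stood at 81.6 and 322 CPM. Genes of neutrophil granules, which developing neutrophils transcribe, were few in fragments and mostly in spleen. Lactoferrin LTF had 5 and 57 fragments, the cathelicidin PMAP-36 11 and 85, and the protegrins NPG1 and NPG4, near-identical copies whose fragments cannot be assigned with certainty, 0 and 25 and 2 and 42. The adipokine RETN, also made by myeloid cells, had 68 and 56 fragments.

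Natural killer and innate lymphoid genes had unlike medians. Of 12 measured cytotoxic genes 3 were higher in spleen and 2 lower (median 0.46), against 12% higher and 17.8% lower over all measured genes. The share lower was near that of all genes. The antimicrobial NK-lysin, NKL, stood at 144 and 407 CPM, 2.82-fold (2.47 to 3.22), NKG7, a granule membrane protein, at 158 and 323, and the signalling adaptor TYROBP, which myeloid cells share, at 331 and 824. The adaptor HCST had 35 and 9 fragments. The innate lymphoid list had 5 of 9 members lower in spleen and none higher (median -1.16). IL23RA, the IL-23 receptor, had 114 fragments in lymph node and 17 in spleen, lymphotoxin beta, LTB, 255 and 116, and the stem cell factor receptor KIT stood at 541 and 242 CPM. AHR, a ligand-activated factor that innate lymphoid cells depend on, had 1117 and 15 fragments, with a log2 ratio of -6.31 by fragments and -4.18 by scaled FPKM. IL7R, the IL-7 receptor chain counted in the T-cell list, which innate lymphoid cells carry too, was 27.3-fold higher in lymph node (18.0 to 43.4).

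T-cell genes that remained in the knockout were not spread evenly. Of 18 measured members 7 were lower in spleen and 2 higher (median -0.70), against 17.8% and 12% of all measured genes. The higher members were the receptor chains CD3G, with 8 fragments in lymph node and 116 in spleen (11.7-fold, 5.72 to 27.6), and CD3D, with 31 and 191 (4.95-fold, 3.38 to 7.49). CD3E was not among them, at 3 and 8 fragments, below the minimum. RAG1 and the lymphocyte receptor CCR7 were among the lower members, as were CD4, which macrophages and dendritic cells may also carry, with 520 and 71 fragments (9.11-fold higher in lymph node, 7.10 to 11.8), the transcription factor GATA3 with 32 and 4, and the costimulator ICOS with 63 and 12. CD8A, with 35 and 45 fragments, did not reach a call. The wild type had the CD3 chains on the lymph node side, with log2 ratios of -1.67 for CD3G and -1.57 for CD3D.

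The recombinase gene RAG1, listed as RAG-1 (chromosome 2, 24565447 to 24573853), had 91 fragments in the knockout lymph node and 1 in the knockout spleen, 113-fold higher in lymph node (19.8 to 4520.1). Its log2 ratio was -5.04 by fragments and -3.65 by scaled FPKM. RAG2 had 5 and 0 fragments, below the minimum. The knockout thymus had 66254 fragments of RAG-1 and 4731 of RAG2, so the lymph node level was small against it. Among the 6 measured B-cell and plasma cell genes, 2 were higher and 2 lower. XBP1 and SDC1, which plasma cells express and other cells share, were 3.68-fold and 3.87-fold higher in lymph node, and CD38, a surface enzyme of many leukocytes, was 2.88-fold higher in spleen. The other member higher in spleen, the receptor chain CD79B, had only 2 and 12 fragments.

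Interferon signalling and response genes lay toward spleen. Of 28 measured members 12 were higher and 0 lower, with a median of 0.88 against -0.079 for all measured genes. The chemokines CXCL9 and CXCL10 were 4.08-fold (3.38 to 4.95) and 3.95-fold (3.57 to 4.38) higher in spleen. The regulator IRF7 stood at 62.8 and 221 CPM, and the nucleic acid sensor ZBP1 at 67.8 and 233. The antiviral proteins IFIT3 and MX1 had log2 ratios of 1.57 and 1.40. The interferon receptor chain IFNGR1 had a log2 ratio of -0.12. The antiviral enzyme OAS2 was at -0.98 by fragments and at 1.81 by scaled FPKM, so its direction depended on the unit. Of 15 MHC class I and peptide loading genes 2 were higher and 0 lower, a share higher near the 12% of all measured genes. Their median was 0.71, and the called genes were the proteasome genes PSMB10 and PSME2. The class I genes are close copies of each other, so their single values are uncertain. MHC class II genes had 0 of 9 called, with SLA-DRA at 0.43 and SLA-DQA1 at 0.25.

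The cell cycle list had 8 of 14 members higher in spleen and 0 lower (median 1.10). The mitotic kinase CDK1 had 14 fragments in lymph node and 130 in spleen, 7.46-fold (4.29 to 14.0), CDC20 had 22 and 124, and topoisomerase TOPOII stood at 117 and 489 CPM. The proliferation marker MKI67 had a log2 ratio of 0.11, under the size of a call. In the wild type 0 of 14 were called, with a median of -0.58.

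Inflammatory cytokine and complement genes were called in both directions. The shares over all measured genes were 17.8% lower and 12% higher. Of 25 cytokine and receptor genes 10 were lower in spleen and 4 higher (median -0.63). Nitric oxide synthase NOS2 was 21.6-fold higher in lymph node (12.1 to 42.4), the neutrophil-attracting chemokine CXCL2 9.87-fold (5.75 to 18.2) and the opsonin PTX3 8.17-fold (6.07 to 11.2). CSF1, the macrophage growth factor, was 3.31-fold higher in spleen (2.66 to 4.15). Of 20 complement and acute-phase genes 7 were lower and 4 higher (median -0.14). Among them the ficolins, which start the lectin pathway, went opposite ways: FCN2 stood at 4689 and 157 CPM, 29.8-fold higher in lymph node (26.9 to 33.0), and FCN1 at 24.7 and 119, 4.81-fold higher in spleen (3.55 to 6.62). Complement C3 was 2.28-fold higher in spleen.

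Among lists of basic cell functions, of 32 respiratory chain genes 0 were called (median 0.11). The ribosomal protein family, taken by symbol and so including the kinase RPS6KA1, had 1 of 43 called each way (median -0.51), RPL9 lower and RPS6KA1 higher. Heat-shock and immediate-early genes had 2 of 13 lower, with a median of -0.052 that turned positive under 4 other scalings (0.027 to 0.062). That share is near the 17.8% of all measured genes. The lower genes were FOS at -1.77 and DNAJB1 at -1.05, while HSPA8 stood at 0.36. In the metallothionein and stress list CAT, GPX3 and MT1A were lower in spleen, 3 of 12, with catalase at 3565 and 562 CPM and glutathione peroxidase GPX3 at 3182 and 369.8.

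Several genes with wide ratios have not been described above. FOLR1, a folate receptor (chromosome 9, 6746014 to 6750431), had 4265 fragments in lymph node and 1 in spleen, 5306-fold (952 to 209622), and the lowest log2 ratio of all measured genes at -10.56. Myocilin MYOC had 1350 and 0 fragments, the oxidase FMO1 1497 and 3, and the syntenin relative SDCBP2 471 and 1. On the spleen side GPR82, a receptor without a known ligand (chromosome X, 37328672 to 37334144), stood at 49.5 and 5915 CPM, 119.6-fold (98.2 to 147). DERL1, which helps export misfolded proteins from the endoplasmic reticulum, had 0 and 334 fragments, and CD200R1, an inhibitory receptor of myeloid cells, 0 and 119. LOC396596, annotated as PAEP, a lipocalin, had 1 and 823. The tetraspanin CD82 had 9 and 2263 fragments, a log2 ratio of 7.37, which was 2.83 by scaled FPKM. The integrin chain ITGAV, at -5.01 by fragments, was at -0.50 by scaled FPKM and is uncertain. Of 2444 genes that had at least 10 fragments in each library, the ratios by the units differed by 2-fold or more in 33. That count leaves out genes with fewer than 10 fragments in a library, CD82 and FOLR1 among them.

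Organ differences in the knockout were set beside those in the wild type. The pairs share no library, but both genotypes of an organ stand in the same tissue table. Whether that adds to the overlap below was not tested. Of 2596 genes measured in both genotypes, 154 were called higher in spleen in both and 186 lower in both. The shared higher genes were 52.0% of the 296 called in the knockout and 52.4% of the 294 called in the wild type. The shared lower genes were 43.6% of 427 and 64.6% of 288. Across the 2596 genes the log2 ratios had a Pearson r of 0.60, a description only, since genes are not independent replicates. FOLR1, CD209, CLEC4G, MRC1 and VSIG4 were on the lymph node side in both genotypes. CD82, GPR82, DERL1, NPY2R and SLC11A1 were on the spleen side in both. For CD82 the knockout log2 ratio was 7.37 by fragments and 2.83 by scaled FPKM.

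Other lists had unlike values in the genotypes. The adipocyte median was -3.51 in the knockout and -0.18 in the wild type, and the fibroblast median -1.86 and 0.12. DCN, at 2006 and 136 CPM in knockout lymph node and spleen, stood at 304 and 368 in the wild type. The T-cell median was -0.70 against -1.86, and the interferon median 0.88 against 0.00087. Called in opposite directions were 49 genes, 17 higher in the knockout spleen and lower in the wild-type spleen and 32 the reverse. The lipase PLA2G2D, for example, stood at 45.0 and 779.7 CPM in the knockout and 107 and 40.8 in the wild type. The scavenger receptor MSR1 stood at 469.9 and 83.1 against 155 and 606. With 1 library in each cell of this design, no difference between the genotypes' organ ratios could be tested.

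**Figure D4:**
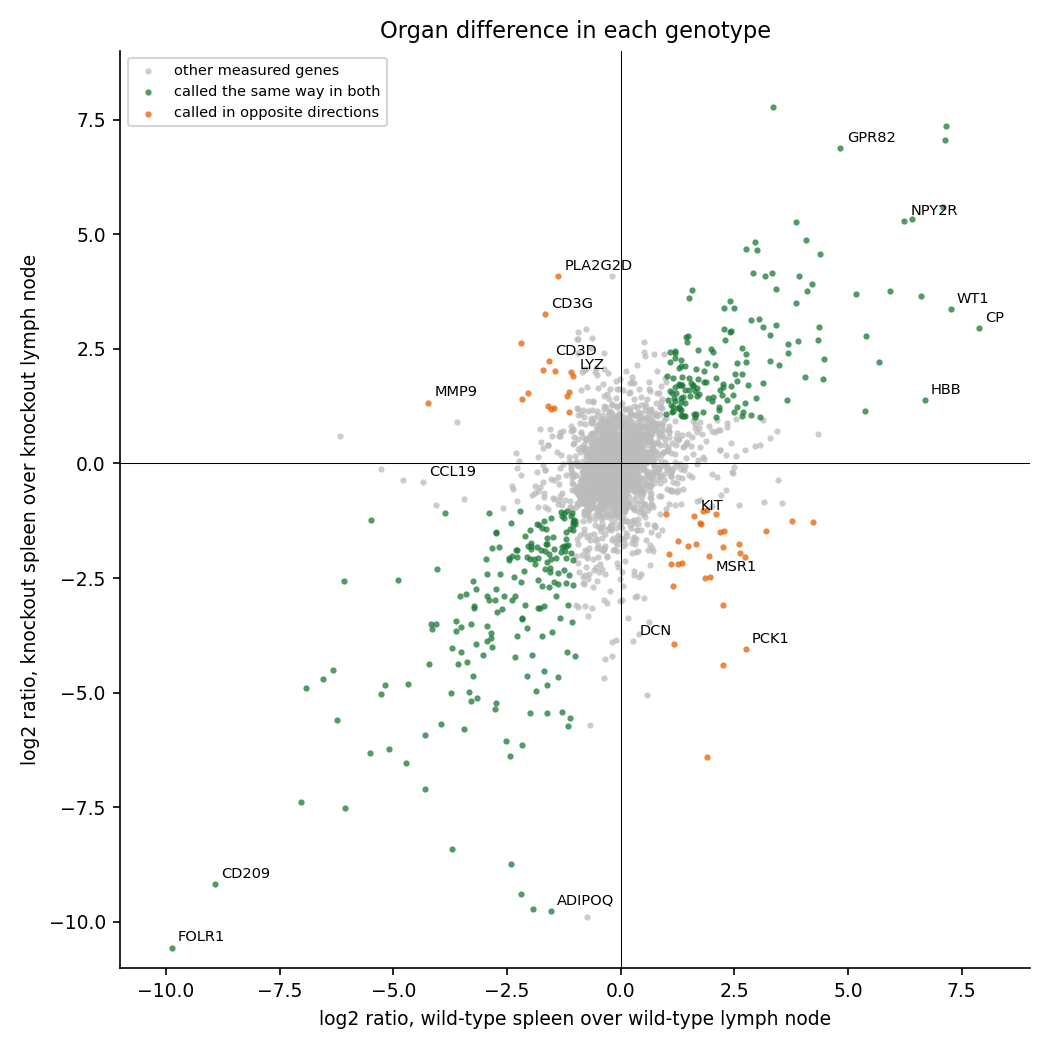
Log2 ratio of spleen over lymph node in the wild type (horizontal) and the knockout (vertical) for the 2596 genes measured in both. Green points are the 154 and 186 genes called the same way in both genotypes, orange points the 49 called in opposite directions, grey points the rest. CD209 and FOLR1 lie low in both, ADIPOQ lies low mainly in the knockout, and CD3G and PLA2G2D stand above 0 in the knockout and below it in the wild type.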

How the data were processed

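RNA sequencing libraries of knockout spleen and knockout lymph node were compared, with the wild-type pair beside them. Per the submitters' processing notes, the tools were STAR 2.7.9a, Cufflinks 2.2.1, FastQC 0.11.9 and Trimmomatic 0.39 and the build was Sscrofa11.1, without order or settings. Per the labels' protocols, a stranded total RNA kit was used. In the sources used here, no annotation, strand setting or rule for fragments shared by genes is given, so close copies and overlapping genes are uncertain.

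The deposited count tables hold estimated counts scaled by the authors, as the values show: 97.0 to 99.2% of them are whole multiples, within 0.02, of their library's commonest nonzero value. Counts were divided by it and rounded to whole fragments. FPKM values were calculated by the authors within each tissue table and served as a check. The tables list 4122 genes, so totals are not library depths. A single fragment was worth 0.495 CPM in lymph node and 0.398 in spleen, and 3 fragments per library served as floor.

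No test was run: edgeR and DESeq2 gave size factors only. The calculation was tested on simulated counts with 200 changed genes. Members and gene lists were chosen with earlier results of these data known. Named genes are RAG1 and RAG2, up to 6 called members per list with 20 or more fragments in either library and the largest ratios, the 15 highest and 15 lowest genes, the 10 with the most fragments per library, and members with little difference. Outside this rule, CCL19, CCL22, CCN2, CCR1, CD163, CD2, CD3D, CD3E, CD5L, CD79B, CD8A, CSF1, EDN1, EDNRB, EPAS1, FABP5, GPD1, HMOX1, IFNGR1, LIPE, LOC733603, LPL, LYZ, MARCO, MKI67, MMP2, MMP9, MS4A1, MSR1, MX1, NR1H3, NR2F2, NR5A1, OAS2, PCK1, PLA2G2D, PLN, PN-1, POU2AF1, RETN, S100A12, S100A8, S100A9, SMTN, TIMP1, TNC and TNFSF13B were chosen after their values were seen. Some items are not reported here. Lists were searched under listed aliases; coordinates come from RefSeq for Sscrofa11.1, where 3721 symbols matched. The software was R 4.3.3 with DESeq2 1.42.0 and edgeR 4.0.16, and Python 3.11.15 with scipy 1.17.1, pandas 2.3.3, matplotlib 3.10.9 and numpy 2.4.6.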

Additional observations from a re-analysis of the deposited data

Results flagged for a closer look

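15 of the named genes were called higher in spleen in one genotype and lower in the other. The difference between the genotypes was not tested for any of them, because each of the 4 libraries stands alone. Ratios are log2 of spleen over lymph node with 1 CPM added.

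The T-cell receptor chains had ratios of 3.25 for CD3G and 2.24 for CD3D in the knockout, against -1.67 and -1.57 in the wild type. CD79B, the B-cell receptor chain, was at 1.54 on 2 and 12 fragments in the knockout and at -2.04 in the wild type, which had 1891 and 498. The B-cell survival factor TNFSF13B was at 1.57 and -1.13. Among myeloid genes, LYZ was at 1.92 in the knockout and -1.04 in the wild type, PLA2G2D at 4.08 and -1.37, MSR1 at -2.49 and 1.96, and the gelatinase MMP9, which neutrophils carry, at 1.32 and -4.23. The interferon-induced chemokine CXCL9 was at 2.01 and -1.44, with 133 and 675 fragments in the knockout lymph node and spleen and 116 and 45 in the wild type.

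GATA1 was at 1.99 in the knockout and -1.09 in the wild type, where it had 12 and 5 fragments. KIT was at -1.16 and 1.62, and haptoglobin HP at -1.82 and 2.26. PCK1 was at -4.05 in the knockout and 2.76 in the wild type, where it had 0 and 12 fragments. The histone gene HIST1H3E, which has near-identical copies, was at 1.41 and -2.16, and the creatine transporter SLC6A8 at -2.19 and 1.11. By scaled FPKM the knockout ratio of SLC6A8 was -5.34.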

How the results depend on the processing

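Counts of calls stayed within 1.5 times the reported ones under every alternative except a threshold of 2 on the log2 scale. At that threshold the knockout spleen had 115 genes higher and 248 lower, the wild-type spleen 139 and 137, both shared 54 and 86, and 5 were opposite. The other settings were counts as deposited over their sum, TMM factors, DESeq2 size factors, a total without the 10 most abundant genes, centring on the median, both FPKM scales, pseudocounts of 0.1 and 5, no minimum, a 50-fragment minimum and the interval rule. The share of calls that were higher ranged from 31.7% (threshold of 2) and 39.4% to 47.1% (FPKM as deposited), against 40.3% as reported.

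List medians near 0 changed sign, and the cause was not tested. The heat-shock median became 0.038 with TMM factors, 0.039 with DESeq2 size factors, 0.027 when centred and 0.062 with FPKM as deposited. The metallothionein and stress median became 0.020, 0.021, 0.0085 and 0.044 in the same order. FPKM as deposited moved the median of all measured genes from -0.079 to 0.041. Without a minimum the B-cell median became -0.15, the macrophage median -0.097 and the epithelial median -0.54. With a minimum of 50 fragments, where fewer genes were measured, the medians became -0.64 for B cells, -0.10 for striated muscle, 0.86 for erythroid genes, -0.069 for epithelial genes and -1.12 for chemokines. With a pseudocount of 5 the innate lymphoid (-0.78), neutrophil (0.96), erythroid (0.98) and cell cycle (0.89) medians no longer reached 1.

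Among genes named in the text, OAS2 changed direction to a call, from -0.98 to 1.81 by scaled FPKM and 1.95 by FPKM as deposited, and no gene called in the main comparison changed sign. No paired analysis was possible because each group holds 1 library, and for the same reason leaving out a library was not done. The totals on listed genes limit the precision: genes under 10 fragments in both libraries were not called, and 70 calls rest on fewer than 20 fragments in either.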

Other observations

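Toll-like receptor genes, which sense microbial molecules, were split between the knockout organs. TLR8, an endosomal sensor of single-stranded RNA, stood at 521 CPM in lymph node and 2374 in spleen, 4.56-fold higher in spleen (4.27 to 4.87), and TLR4, the endotoxin receptor, was 2.04-fold higher there (1.91 to 2.17). TLR5, which senses flagellin, was 5.70-fold higher in lymph node (4.08 to 8.12), and TLR1, TLR3 and TLR6 were lower in spleen at log2 ratios of -1.21, -1.05 and -1.13. Of the 10 measured members 2 were higher and 4 lower in spleen, against 12% and 17.8% of all measured genes. The beta-2 integrin chain ITGB2, shared by leukocytes, stood at 728 and 3942 CPM, 5.41-fold higher in spleen.

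Dendritic cell genes had 4 of 14 members lower in spleen and 2 higher, with a median of 0.43. Over all measured genes 17.8% were lower and 12% higher. The higher members were CD86 and IRF7, at log2 ratios of 1.41 and 1.80. The chemokines CCL17 and CCL22, which draw CCR4-bearing cells, had 22 and 17 fragments in the knockout lymph node and 0 in the knockout spleen. All 4 measured members of the mast cell and eosinophil list were lower in spleen, with GATA2 at a log2 ratio of -2.05 and the IgE receptor chain MS4A2 at -1.25. Among them KIT and GATA2 stand in other cell lists as well. The chemokine receptor CCR1 stood at 162 and 1706 CPM and the protease inhibitor PN-1, annotated as SERPINE2, at 164 and 2264, both higher in spleen. LOC733603, annotated as the acute-phase protein SAA3, had 52 and 885 fragments in knockout lymph node and spleen, and 2 and 7 in the wild-type organs. LOC102723301, annotated as a signal recognition particle RNA, had 1911 fragments in the knockout lymph node and 0 in the knockout spleen, while the other 4 libraries held between 1017 and 1737. As a short RNA with many genomic copies its counts are uncertain. Solute carriers had 6 of 52 members higher in spleen and 11 lower, close to the share over all genes.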
